A study of Homo sapiens with 5 samples.

Results

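The genes described here are 6 members of the CEACAM family of cell adhesion molecules (CEACAM1, CEACAM5, CEACAM6, CEACAM7, CEACAM8 and CEACAM19) and PSG4, a pregnancy-specific glycoprotein gene of the same superfamily. They are 7 of the 18512 gene symbols of the authors' deposited table, and they were chosen by name, with the difference between the groups already known. Their values are therefore a description, and no test of them was made here. RNA came from BT474, a breast cancer cell line of luminal type in which the HER2 gene is amplified. Persister cells (3 libraries) were what remained after 9 days in 2 µM lapatinib, a kinase inhibitor of HER2 and EGFR, begun at 75% confluence and renewed every 3 days. Parental cells (2 libraries) received no lapatinib, and both groups carried 0.01% DMSO as solvent. All libraries come from 1 cell line, and the series calls them biological replicates without naming separate cultures.

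The table gives, for each gene, 1 FPKM value per group, that is, a fragment number corrected for the length of the transcript and the size of the library. It holds no value per library, so no SD, n or spread between replicates can be attached to any level below. The only measure of replicate error is the q-value of the authors' own comparison, and a gene is called higher or lower here where that q-value is under 0.05. Among 13617 genes that the authors' test covered, 69.9% were called, 30.9% as higher and 39.0% as lower in persister cells. A call alone therefore sets a gene little apart. Where a log2(FPKM + 1) difference of at least 1 was also required, 2.98% were called higher and 6.01% lower.

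CEACAM proteins are built from immunoglobulin-like domains and bind to the same or related proteins on neighbouring cells. CEACAM5, CEACAM6, CEACAM7 and CEACAM8 are held in the membrane by a glycosylphosphatidylinositol (GPI) anchor, whereas CEACAM1 spans the membrane and, in its long form, carries inhibitory tyrosine motifs in its tail. CEACAM5 is the carcinoembryonic antigen measured in the blood of cancer patients, and CEACAM6 is often raised in epithelial tumours. PSG proteins are secreted, mainly by the syncytiotrophoblast of the placenta. The genes of both groups lie on the long arm of chromosome 19 and arose by duplication, so that stretches of their transcripts are nearly alike.

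The 7 genes moved in 2 directions. CEACAM1, CEACAM5, CEACAM6, CEACAM7 and CEACAM8 were lower in persister cells, and CEACAM19 and PSG4 were higher. All 7 were covered by the authors' test, the authors' deposited table lists 0 as the q-value of each, and each difference on the log2(FPKM + 1) scale was 1 or more in size. Since these values chose the genes, the counts are read against neither 69.9% nor the smaller shares. A q-value of 0 was listed for 2706 symbols, so it gives no order among the 7 genes. In bulk RNA, fewer cells that express a gene and less RNA of it per cell cannot be told apart.

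**Figure D1:**
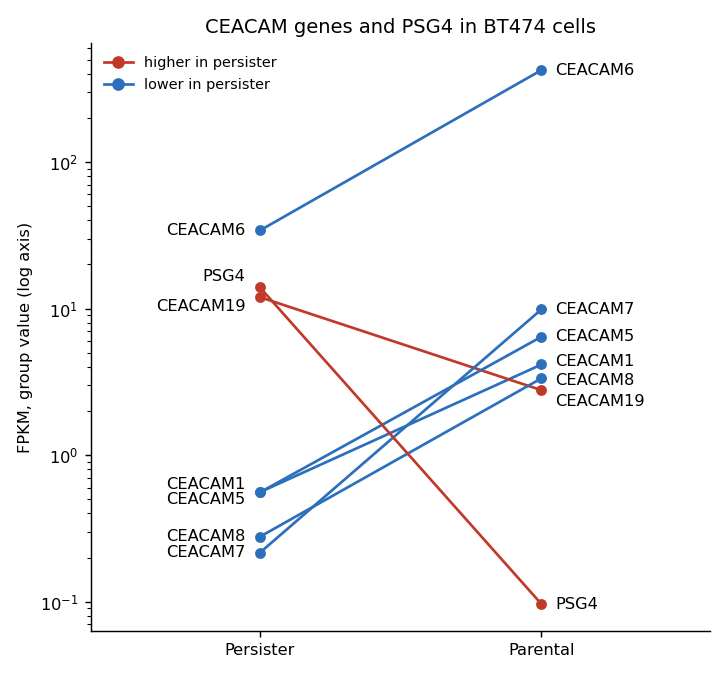
FPKM of the 7 genes on a log axis, with the persister group value on the left and the parental group value on the right; each line joins the 2 values of 1 gene, and no error bars exist because the table has no values per library. The lines of 5 CEACAM genes lie lower on the persister side, and those of CEACAM19 and PSG4 lie higher there.

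CEACAM6 was by far the most abundant gene of the family. Its level was 34.1 FPKM in persister cells, against 424 FPKM in parental cells, a persister to parental ratio of 0.0805. The difference on the log2(FPKM + 1) scale was -3.60, the 11th largest fall among the 5308 genes called lower. In parental cells its level lay above that of about 99.4% of tested genes. In persister cells it was still above about 88.2% of them, and it remained the highest of the 7 genes.

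The other GPI-anchored members were far lower in both groups. CEACAM5 had 0.557 FPKM in persister cells, against 6.42 FPKM in parental cells, a ratio of 0.0867 and a difference of -2.25 on the log2(FPKM + 1) scale. CEACAM7, otherwise known from the surface epithelium of the colon, had 0.216 FPKM in persister cells, against 9.87 FPKM in parental cells. Its ratio of 0.0219 was the lowest of the 5 genes that fell, and its difference on the log2(FPKM + 1) scale was -3.16. CEACAM8, known as CD66b on granulocytes and as a binding partner of CEACAM6, had 0.277 FPKM in persister cells, against 3.34 FPKM in parental cells. That was a ratio of 0.083 and a difference of -1.77 on the log2(FPKM + 1) scale. These 3 genes were all above 1 FPKM in parental cells and all below it in persister cells. Because 1 is added before the logarithm, the log2 differences of such low genes understate their ratios.

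CEACAM1, the membrane-spanning member, had 0.558 FPKM in persister cells, against 4.15 FPKM in parental cells. Its ratio of 0.134 was the mildest among the 5 genes that fell, with a difference of -1.72 on the log2(FPKM + 1) scale. In persister cells CEACAM1 and CEACAM5 had almost the same FPKM, and no spread between libraries is known that could separate these neighbours in the order.

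CEACAM19 and PSG4 went the other way. CEACAM19, a membrane-spanning family member whose role is little known, had 11.96 FPKM in persister cells, against 2.77 FPKM in parental cells. Its level was thus 4.31-fold higher, with a difference of 1.78 on the log2(FPKM + 1) scale. PSG4 had 13.9 FPKM in persister cells, against 0.0962 FPKM in parental cells. This ratio of 145 rests on a parental level that lay above only about 6.35% of tested genes. On the log2(FPKM + 1) scale the difference was 3.77, the 2nd largest rise among the 4206 genes called higher.

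By level in persister cells the order was CEACAM6, PSG4, CEACAM19, CEACAM1, CEACAM5, CEACAM8 and CEACAM7. In parental cells it was CEACAM6, CEACAM7, CEACAM5, CEACAM1, CEACAM8, CEACAM19 and PSG4. Only 3 of the 7 genes reached 1 FPKM in persister cells, against 6 in parental cells. The summed FPKM of the 11 CEACAM genes in the table was 49.18 in persister cells, against 455.1 in parental cells, a ratio of 0.108. CEACAM6 made up 69.3% of that sum in persister cells and 93.1% in parental cells. Without CEACAM6 the sums were 15.1 FPKM in persister cells and 31.5 FPKM in parental cells. Most of what was left of the other genes in persister cells was CEACAM19.

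The deposited FPKM values keep a trace of depth. Among long genes with 1 transcript, low FPKM multiplied by length gathered near about 2.37 in persister cells and 3.57 in parental cells. These values were taken as the worth of 1 fragment. Values in a window around the next multiple had medians of 1.99 and 1.98 times these. That window was centred on the multiple, so its median had to lie close to it and does not show a second cluster. Within 25% of the commonest value lay 123 persister and 142 parental values, with 83 and 93 around the next multiple and 9 and 18 in the gap between. These windows differ in width, that of the gap being the narrowest, so the counts do not show how sharply the steps stand apart. With 2.37 and 3.57 taken as 1 fragment, PSG4 rested on about 13000 fragments in persister cells and about 58 in parental cells. The lowest member, CEACAM7, rested on about 230 fragments in persister cells and about 6900 in parental cells. CEACAM6 rested on about 39000 fragments in persister cells and about 320000 in parental cells. These estimates add up all libraries of a group, use reference transcript lengths, and carry counting error only, so they say nothing of the spread between cultures.

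The other CEACAM genes of the table were CEACAM3, CEACAM4, CEACAM16, CEACAM20 and CEACAM21, of which 2 were tested. CEACAM3, a phagocytic receptor of granulocytes, was called lower, with 0.367 FPKM in persister cells and 4.34 FPKM in parental cells. CEACAM16, a secreted protein of the tectorial membrane of the inner ear, was called higher, with 1.15 FPKM in persister cells and 0.592 FPKM in parental cells. CEACAM4, CEACAM20 and CEACAM21 were not tested, and their highest value was 0.0285 FPKM, that of CEACAM20 in parental cells.

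Against CEACAM6 in the same group, several low members kept a nearly fixed level. CEACAM5 stood at 1.63% of CEACAM6 in persister cells and 1.52% in parental cells. CEACAM3 stood at 1.08% in persister cells and 1.03% in parental cells, and CEACAM8 at 0.813% in persister cells and 0.789% in parental cells. CEACAM1 and CEACAM7 did not keep such a level. CEACAM1 stood at 1.64% of CEACAM6 in persister cells and 0.98% in parental cells, and CEACAM7 at 0.633% in persister cells and 2.33% in parental cells.

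**Figure D2:**
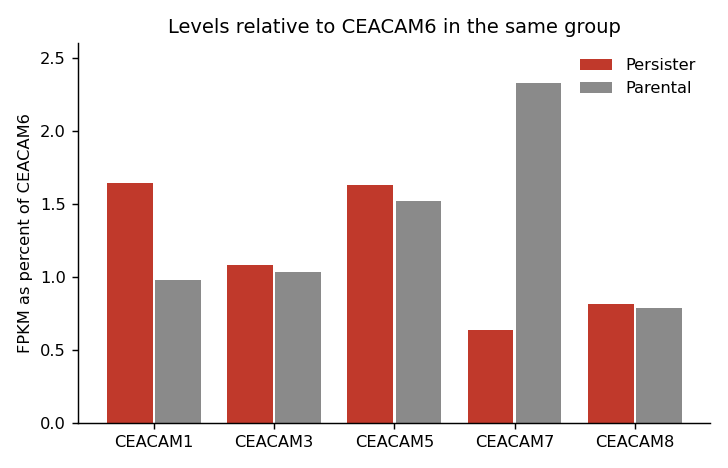
FPKM of 5 CEACAM genes as a percent of the CEACAM6 FPKM of the same group, with persister bars left of parental bars. The bars of CEACAM3, CEACAM5 and CEACAM8 are close to equal between the groups, at 1.08% and 1.03%, 1.63% and 1.52%, and 0.813% and 0.789%, whereas CEACAM7 stands at 0.633% and 2.33%.

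These ratios touch a limit that the shared sequence sets. The sources used here do not give how reads matching several genes were assigned. In reference transcripts (GENCODE 29), 4.6% of the 50-base stretches of CEACAM6 occurred unchanged in another CEACAM or PSG gene. The share was 4.15% for CEACAM1, 3.26% for CEACAM5 and 2.53% for CEACAM8, and none for CEACAM7 and CEACAM19. With up to 2 mismatches the shares became 21.6% for CEACAM6, 28.5% for CEACAM5, 13.5% for CEACAM1 and 11.2% for CEACAM8. CEACAM7 had 1.93% and CEACAM19 again none.

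The stretches that lay within 2 mismatches of CEACAM6 itself made up 18.6% of CEACAM5, 12% of CEACAM3, 7.49% of CEACAM1 and 6.25% of CEACAM8. In CEACAM7 they made up 0.16%. The genes that held a fixed ratio to CEACAM6 are thus among those that share sequence with it. None of them exceeded 1.63% of CEACAM6 in either group. CEACAM1 shared more with CEACAM6 than CEACAM8 did, 7.49% against 6.25%, and did not hold such a ratio. Whether CEACAM6 fragments entered the values of any of these genes was not tested. The fall of CEACAM7 and the rise of CEACAM19 were measured on transcripts with little or no such sharing. Outside the family, AC243967.1, another annotated gene, held 18.5% of the 50-base stretches of CEACAM5 unchanged, 4.22% of those of CEACAM6 and 2.29% of those of CEACAM3. LIPE-AS1 held 1.73% of those of CEACAM1, 1.15% of CEACAM8 and 0.67% of CEACAM5. Counted over any other gene, the unchanged share was 7.92% for CEACAM6 and 20.0% for CEACAM5. The libraries do not keep strand, so reads from genes that overlap on opposite strands cannot be told apart either.

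**Figure D3:**
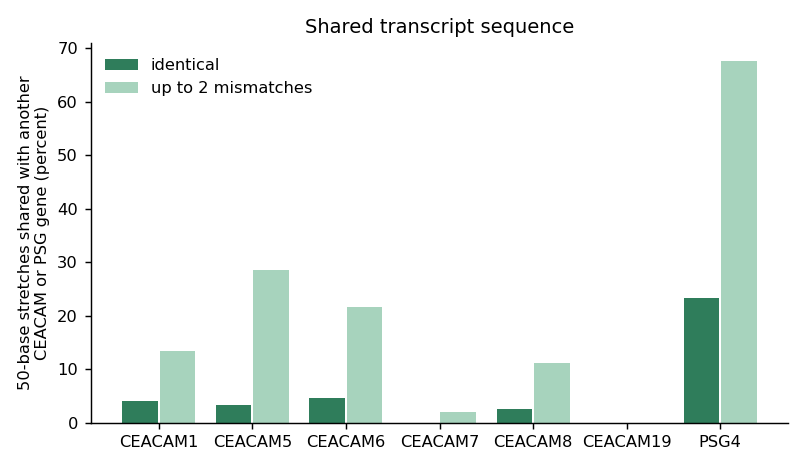
Percent of the 50-base stretches of each gene's longest matching reference transcript found in another CEACAM or PSG gene. Dark bars are identical stretches on either strand, and light bars allow up to 2 mismatches on the sense strand. PSG4 stands highest at 23.3% and 67.5%, and CEACAM19 has no bar because its share is 0 in both.

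PSG4 shared more than any CEACAM member, with 23.3% of its 50-base stretches unchanged in another PSG gene and 67.5% within 2 mismatches. The closest by unchanged stretches was PSG9, which held 7.69% of them, followed by PSG5 and PSG7 with 7.46% each. The table lists 9 other PSG genes, and 7 of them were tested. PSG1, PSG3, PSG6 and PSG9 were called higher. None of the 7 exceeded 0.0375 FPKM in parental cells, so they entered the test through their persister level and could hardly have been called lower. Their calls are therefore not read against the shares of all tested genes.

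Their levels were low throughout. PSG9 had 0.316 FPKM in persister cells, against 0.0375 FPKM in parental cells (q = 5.26e-09 in the authors' deposited table). PSG1 had 0.305 FPKM in persister cells, against 0.00752 FPKM in parental cells (q = 4.19e-05 in the authors' deposited table). PSG6 had 0.127 FPKM in persister cells and was listed at 0 in parental cells (q = 1.95e-07 in the authors' deposited table). PSG5, PSG7 and PSG8 did not pass the threshold. PSG5 had the highest persister level of these genes, 0.500 FPKM against 0.00245 FPKM in parental cells, with q = 0.0804 in the authors' deposited table. Only PSG4 of the PSG genes exceeded 1 FPKM in either group.

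In persister cells the 9 other PSG genes summed to 2.02 FPKM, against 0.059 FPKM in parental cells, and PSG4 made up 87.4% of the family sum in persister cells and 62.0% in parental cells. The tested PSG genes other than PSG4 each stood between 0.861% (PSG3) and 3.59% (PSG5) of PSG4 in persister cells. In parental cells, where PSG4 itself had only 0.0962 FPKM, they stood between 0% (PSG6) and 39.0% (PSG9) of it. The stretches within 2 mismatches of PSG4 made up between 13.6% (PSG11) and 41.8% (PSG8) of the 9 other PSG genes, with 28.99% of PSG9 and 25.6% of PSG5. How far PSG4 fragments account for the values of the other PSG genes was not tested.

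**Figure D4:**
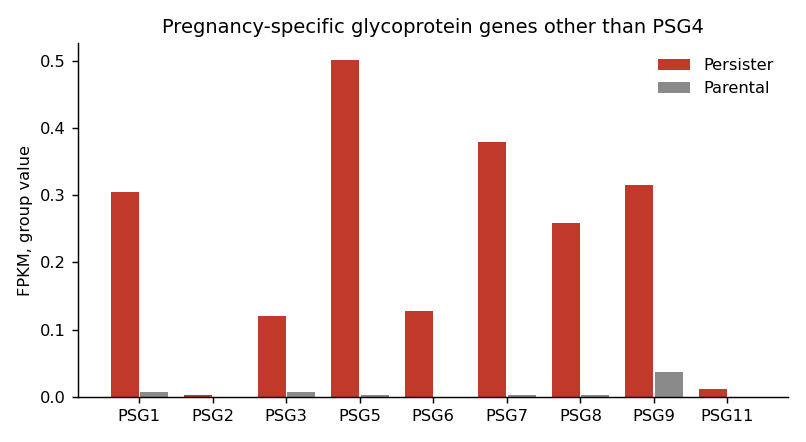
FPKM of the 9 PSG genes other than PSG4 on a linear axis, persister bars left of parental bars. Persister values run up to 0.500 FPKM in PSG5, and no parental value exceeds the 0.0375 FPKM of PSG9.

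Markers of other cell types that carry these genes were mostly low, with exceptions that moved with the groups. Of 12 granulocyte markers, all stayed under 1 FPKM in both groups, with summed levels of 0.499 FPKM in persister cells and 0.257 FPKM in parental cells. CD177, which lies right after the PSG genes, was called higher, at 0.308 FPKM in persister cells and 0.00285 FPKM in parental cells. CSF3R was called lower, at 0.0257 FPKM in persister cells and 0.0806 FPKM in parental cells, and ELANE and FCGR3B were listed at 0 in both groups. Of 17 placental trophoblast markers in the table, 16 stayed under 1 FPKM, and CSH1, CSHL1, LGALS13, LGALS14 and HSD3B1 were listed at 0 in both groups. The summed trophoblast level was 1.56 FPKM in persister cells and 0.861 FPKM in parental cells, most of it INHA, the inhibin alpha subunit. INHA was called higher, at 1.26 FPKM in persister cells and 0.568 FPKM in parental cells, and its part in the PSG4 result was not tested. CGA, the other of the 2 tested trophoblast markers, was not called, at 0.0934 FPKM in persister cells and 0.169 FPKM in parental cells. ALPP, the placental alkaline phosphatase of the syncytiotrophoblast, was not on that list and was chosen after its values were seen. It was called higher, at 0.977 FPKM in persister cells and 0.0123 FPKM in parental cells, in the same direction as PSG4, and its part was not tested either. Of 13 colon epithelium markers, 12 stayed under 1 FPKM, with summed levels of 5.48 FPKM in persister cells and 6.67 FPKM in parental cells. The exception was CA2, carbonic anhydrase 2, called lower at 5.02 FPKM in persister cells and 6.18 FPKM in parental cells. With each group scaled to its FPKM sum, the CA2 difference was 0.06 on the log2 scale. LGALS4, the other of the 2 tested colon markers, was not called. The 10 luminal breast markers summed to 2140 FPKM in persister cells and 2956 FPKM in parental cells. Of the 9 tested, 2 were called higher and 7 lower, against 30.9% and 39.0% of all tested genes. Scaled to the FPKM sum of each group, the differences of KRT8 and KRT19, keratins of luminal cells, were -0.01 and -0.08 on the log2 scale. KRT7, another keratin of the list, stayed at -0.38. GATA3 was called higher, at 43.3 FPKM in persister cells and 14.1 FPKM in parental cells, and stood at 1.95 after scaling. The median over 10160 genes with at least 1 FPKM in both groups was 0.22 after the same scaling. ERBB2, amplified in this line, is listed at 0 in both groups. An exact 0 in this table therefore does not show that a gene is absent, which holds for the markers listed at 0 too.

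The order of genes on chromosome 19 sets the members into 4 places. CEACAM7, CEACAM5, CEACAM6 and CEACAM3 follow each other and all were lower in persister cells. CEACAM1 and CEACAM8 are next to each other further along, and both were lower too. The PSG genes begin right after CEACAM8, where the direction changes, and PSG4 lies near their end. CEACAM19 and CEACAM16 are neighbours far beyond, and both were higher.

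**Figure D5:**
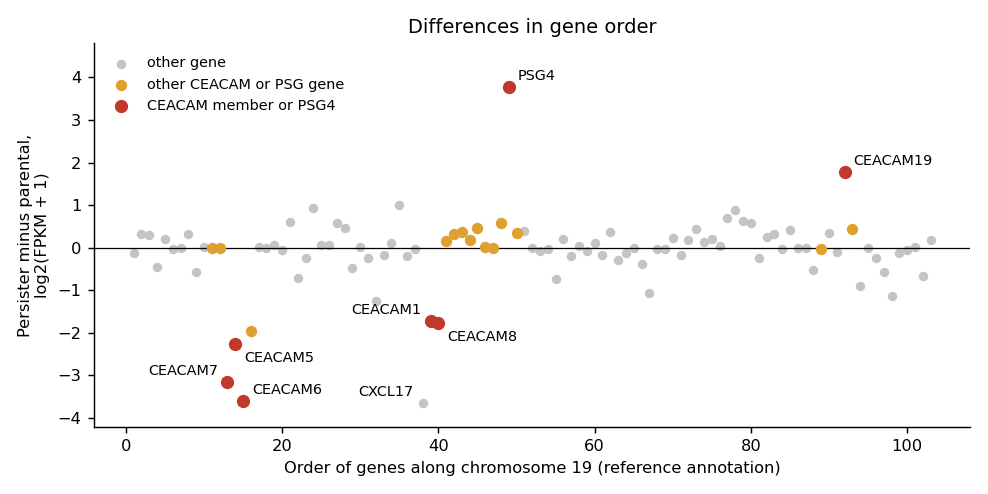
Difference of persister minus parental cells on the log2(FPKM + 1) scale for genes in their order along chromosome 19, from 10 genes before the first CEACAM gene to 10 after the last; each point is 1 gene of the table, untested genes included. CEACAM7, CEACAM5, CEACAM6, CEACAM1 and CEACAM8 lie at -1.72 or below, PSG4 at 3.77, CEACAM19 at 1.78, and CXCL17 beside CEACAM1 at -3.65.

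Of 82 other genes in that stretch, 69 were tested, of which 23 were called higher and 20 lower. The higher ones were 33.3% of them, against 30.9% of all tested genes, and the share of lower ones was below the 39.0% of all tested genes. Their median difference was -0.02 on the log2(FPKM + 1) scale. CXCL17, a chemokine of mucosal tissues that precedes CEACAM1, had 1.603 FPKM in persister cells, against 31.6 FPKM in parental cells. Its difference of -3.65 on the log2(FPKM + 1) scale stands beside the -3.60 of CEACAM6. PAFAH1B3, a subunit of an acetylhydrolase, had 18.5 FPKM in persister cells and 45.0 FPKM in parental cells. TOMM40, the channel of the outer mitochondrial membrane, had 18.9 FPKM in persister cells and 42.8 FPKM in parental cells. LIPE, the hormone-sensitive lipase next to CXCL17, was not called, at 0.0587 FPKM in persister cells and 0.0791 FPKM in parental cells. PVR, the poliovirus receptor beside CEACAM19, was not called either, at 10.8 FPKM in persister cells and 11.6 FPKM in parental cells. LIPE and PVR were chosen after their values were seen, for their place in the order.

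The promoters of the members were compared as well, with no value for unrelated promoters beside them. RefSeq windows of 300 bases (250 before to 50 after the gene start, GRCh38.p14) matched 6 of the 7 genes, all but CEACAM19. Over the 15 pairs of these windows, identity in global alignments ran between 74.1% and 89.3% of aligned bases. The highest was that of CEACAM8 and PSG4, which moved in opposite directions. CEACAM5 and CEACAM6, which fell by a similar ratio, had 81.7%. That was below the 84.7% of CEACAM5 and CEACAM7, which both fell. It was also just below the 81.9% of CEACAM1 and PSG4, which moved in opposite directions. The 250 bases before the start of these 4 genes are shown, 5′ to 3′ on the strand of the gene, because they set a pair that moved together beside a pair that did not. Capitals mark CACGTG in the first pair and CCGCCC in the second. CEACAM5 lies at chr19:41708376-41708625 on the plus strand, CEACAM6 at chr19:41755280-41755529 on the plus strand, CEACAM8 at chr19:42594925-42595174 on the minus strand and PSG4 at chr19:43205639-43205888 on the minus strand.
CEACAM5: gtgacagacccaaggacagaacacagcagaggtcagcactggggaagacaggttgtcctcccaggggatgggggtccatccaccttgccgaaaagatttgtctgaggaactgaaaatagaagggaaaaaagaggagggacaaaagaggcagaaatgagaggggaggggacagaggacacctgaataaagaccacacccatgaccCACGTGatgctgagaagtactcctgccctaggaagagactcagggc
CEACAM6: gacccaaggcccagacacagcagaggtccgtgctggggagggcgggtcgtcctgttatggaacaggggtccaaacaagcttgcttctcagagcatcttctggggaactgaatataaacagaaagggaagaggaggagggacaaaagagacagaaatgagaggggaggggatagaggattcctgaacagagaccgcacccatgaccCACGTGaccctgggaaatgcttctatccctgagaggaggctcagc
CEACAM8: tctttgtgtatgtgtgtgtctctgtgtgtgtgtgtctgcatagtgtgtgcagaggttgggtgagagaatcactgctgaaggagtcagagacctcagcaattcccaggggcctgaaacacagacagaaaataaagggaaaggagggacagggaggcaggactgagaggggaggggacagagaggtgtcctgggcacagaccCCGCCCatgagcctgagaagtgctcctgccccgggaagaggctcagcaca
PSG4: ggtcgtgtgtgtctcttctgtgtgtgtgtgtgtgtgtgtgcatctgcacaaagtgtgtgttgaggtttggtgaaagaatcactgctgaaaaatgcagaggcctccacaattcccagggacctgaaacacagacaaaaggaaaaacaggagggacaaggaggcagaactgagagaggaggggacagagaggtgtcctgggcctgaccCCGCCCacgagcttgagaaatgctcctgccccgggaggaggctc

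CACGTG, the core of the E-box bound by USF1 and USF2, reads the same on both strands. It occurred in the windows of CEACAM5 and CEACAM6 and in none of the other 4, against 7.26% of 35116 RefSeq promoter windows. CCGCCC, the core of a GC box, was searched on both strands and occurred in CEACAM1, CEACAM6, CEACAM8 and PSG4, against 45.0% of all windows. TATAAA, the TATA box, was searched on both strands and occurred in CEACAM6 alone of the 6, against 11.5% of all windows. Each motif was thus found in genes that fell, and CCGCCC also in PSG4, which rose. These matches are letters in a window and say nothing of binding.

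Of 19 factors reported at CEACAM or PSG promoters, 16 were tested, 5 called higher and 8 lower, which is 31.2% and 50% against 30.9% and 39.0% of all tested genes. Their median difference was -0.20 on the log2(FPKM + 1) scale, against -0.04 over all tested genes. Over the 10160 genes with at least 1 FPKM in both groups the median was -0.12. After scaling to the FPKM sum of each group the median of the factors was 0.16, against 0.22 over the same 10160 genes. SOX9, a transcription factor of epithelial progenitors, had 3.93 FPKM in persister cells and 12.9 FPKM in parental cells. HIF1A, the hypoxia-inducible factor subunit, had 31.1 FPKM in persister cells and 71.9 FPKM in parental cells. RXRA, the retinoid X receptor, was called higher, with 35.0 FPKM in persister cells and 13.4 FPKM in parental cells. USF1 and USF2, taken up for the E-box, were both called lower, USF1 with 25.1 FPKM in persister cells and 32.5 FPKM in parental cells. USF2 had 33.1 FPKM in persister cells and 44.5 FPKM in parental cells. Scaled to the FPKM sum of each group, the differences of USF1 and USF2 were -0.02 and -0.07 on the log2 scale, below the median of 0.22 given above.

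The machinery that builds and attaches the GPI anchor was covered by 28 tested genes, of which 6 were called higher and 13 lower. That is 21.4% and 46.4%, against 30.9% and 39.0% of all tested genes. Their median difference was -0.18 on the log2(FPKM + 1) scale. With each group scaled to its FPKM sum it was 0.17, against 0.22 over 10160 genes with at least 1 FPKM in both groups. After this scaling 10 of the 13 lower genes stayed below 0. PIGU, a subunit of the transamidase that attaches the anchor, had 45.0 FPKM in persister cells and 94.4 FPKM in parental cells. PIGW, which acylates inositol in the anchor precursor, had 15.6 FPKM in persister cells and 30.6 FPKM in parental cells. PIGX, part of the first mannosyltransferase of the pathway, had 7.34 FPKM in persister cells and 13.9 FPKM in parental cells.

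Other GPI-anchored surface proteins had calls in both directions. Of 22 tested, 9 were called higher and 6 lower, with a median difference of 0.08 on the log2(FPKM + 1) scale. That is 40.9% and 27.3%, against 30.9% and 39.0% of all tested genes. EFNA1, an ephrin ligand, had 71.5 FPKM in persister cells and 24.6 FPKM in parental cells. LY6E, a small Ly6-family protein, had 216 FPKM in persister cells and 571 FPKM in parental cells. CD24, a mucin-like adhesion molecule, had 291 FPKM in persister cells and 597 FPKM in parental cells. Both were called lower.

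Other epithelial adhesion molecules with immunoglobulin folds were divided too. Of 25 tested, 10 were called higher and 10 lower, or 40% each way, against 30.9% and 39.0% of all tested genes. Their median difference was -0.07 on the log2(FPKM + 1) scale. Scaled to the FPKM sum of each group it was 0.24, against 0.22 over 10160 genes with at least 1 FPKM in both groups. After this scaling 5 of the 10 lower genes stayed below 0. L1CAM, a neural adhesion molecule also found in carcinomas, had 6.15 FPKM in persister cells and 0.300 FPKM in parental cells. AMIGO2, an adhesion molecule with leucine-rich repeats, was called higher, with 5.36 FPKM in persister cells and 2.10 FPKM in parental cells. ICAM3, a ligand of leukocyte integrins, was called lower, with 5.45 FPKM in persister cells and 14.3 FPKM in parental cells.

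Among binding and signalling partners of CEACAM1, 18 were tested, 7 called higher and 7 lower, with a median difference of -0.01 on the log2(FPKM + 1) scale. That is 38.9% each way, against 30.9% and 39.0% of all tested genes. After scaling to the FPKM sum the median was 0.28, against 0.22 over 10160 genes with at least 1 FPKM in both groups. ACTB, cytoskeletal actin, had 520 FPKM in persister cells and 1518 FPKM in parental cells. CALM3, a calmodulin gene, had 40.4 FPKM in persister cells and 94.9 FPKM in parental cells. INSR, the insulin receptor, was called higher, with 5.24 FPKM in persister cells and 1.85 FPKM in parental cells. The exon that decides the length of the CEACAM1 tail is known to be regulated by HNRNPL, HNRNPM and HNRNPA1. HNRNPM and HNRNPL were called lower and HNRNPA1 was not called, with a median of -0.43 on the log2(FPKM + 1) scale. After scaling to the FPKM sum their median was -0.07, against the same 0.22. HNRNPM had 98.2 FPKM in persister cells and 151 FPKM in parental cells, and HNRNPL had 71.1 FPKM in persister cells and 95.8 FPKM in parental cells. The table has 1 row per gene, so CEACAM1 isoforms were not analysed here.

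The genes with the most similar pair of group values were sought for PSG4 and CEACAM6, by distance over the 2 log2(FPKM + 1) values. CEACAM6 had the largest fall on this scale, whereas by ratio, with smaller pseudocounts and after scaling to the FPKM sum CEACAM7 fell more. For PSG4 they were PGM5, a phosphoglucomutase-related protein of cell contacts, LAMB3, a chain of laminin-332, and COL5A1, a chain of collagen V. PGM5 had 10.2 FPKM in persister cells and 0.317 FPKM in parental cells, at a distance of 0.50. LAMB3 had 11.3 FPKM in persister cells and 0.648 FPKM in parental cells, at a distance of 0.65. It was not called, with q = 0.381 in the authors' deposited table. COL5A1 had 8.03 FPKM in persister cells and 0.117 FPKM in parental cells, at a distance of 0.73. For CEACAM6 the nearest was SCD, stearoyl-CoA desaturase, with 32.0 FPKM in persister cells and 411 FPKM in parental cells at a distance of 0.10. MGP, matrix Gla protein, and SCGB1D2, a secretoglobin, followed at 0.78 and 1.10. With only 2 values compared, such likeness is shared by level and direction alone.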

How the data were processed

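Polyadenylated RNA of 5 BT474 libraries was sequenced on an Illumina HiSeq 2000 from non-stranded libraries, per the labels' protocols. Build hg18 and the tools TopHat2 2.0.6, Cuffdiff 2.0.2, Cufflinks and CASAVA 1.8 are named in the submitters' processing notes, without settings. The authors deposited 1 table of 18803 rows with a group FPKM value for persister and parental cells, per the file headers, and a q-value of their own comparison, deposited without a statement of its adjustment. The table gives no counts, so the depth is known only through the fragment step, read from genes with 1 transcript of at least 2000 bases.

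Genes with a q-value below 1 counted as tested. A difference is the persister minus the parental value of log2(FPKM + 1). Of 26 rows with a date in place of a symbol, 25 were restored through their transcript identifiers; 269 symbols stood on several rows, and of these the row of highest mean FPKM was kept. Members, lists and markers were chosen with earlier results of these data known. Besides all 7 members, the text names up to 3 called genes per list with the largest difference, or the 2 most abundant where fewer than 2 were called, and the 3 genes nearest to the member with the largest rise and to that with the largest fall on the log2(FPKM + 1) scale. Other genes named were chosen after their values were seen.

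Shared stretches were taken from 1 GENCODE 29 transcript per gene, the longest that matches the table's identifiers, with a script tested on simulated sequences. Unchanged stretches were sought on either strand of all GENCODE 29 transcripts. Those with up to 2 mismatches were sought only on the sense strand of the transcripts taken for the other CEACAM and PSG genes. The 2 measures therefore differ in strand and in the transcripts searched. Promoters were aligned with Biopython 1.88 (match 1, mismatch -1, gap open -2, gap extension -0.5). Other software was Python 3.11.15, pandas 2.3.3, numpy 2.4.6 and matplotlib 3.10.9.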

Additional observations from a re-analysis of the deposited data

How the results depend on the processing

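The 7 calls, 2 higher and 5 lower, were the same at a q-value under 0.01, with a difference of at least 1 required, with 1 FPKM required in 1 or both groups, and over tested rows alone. These settings could hardly remove a call, since every q-value is listed as 0, a called gene is always a tested one, and the genes were chosen with these values known. All 7 differences kept their sign under all 5 other settings (pseudocounts of 0.1 and 0.01, scaling to the FPKM sum, centring on the median, summing rows), 35 values in all. Most of this was fixed in advance. A pseudocount added to both groups cannot change a sign, and each of the 7 genes stands on 1 row, so summing rows changed nothing. Only scaling and centring could have changed a sign. Over all 5 settings the differences on the log2 scale ran between -3.64 and -3.27 for CEACAM6, and -5.45 and -3.05 for CEACAM7. They ran between -3.50 and -2.14 for CEACAM5, -3.54 and -1.65 for CEACAM8, and -2.87 and -1.61 for CEACAM1. For CEACAM19 they ran between 1.78 and 2.33, and for PSG4 between 3.77 and 7.04. CEACAM7 fell more than CEACAM6 with a pseudocount of 0.1 (-4.98 against -3.63), with 0.01 (-5.45 against -3.64) and after scaling to the sum (-4.07 against -3.27). Scaling to the sum (260213 FPKM in persister cells, 333324 in parental cells) moved the median difference of 10160 genes by 0.33, to 0.22, where it is -0.12 as deposited.

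The shared stretches depended on their length. Between 36 and 100 identical bases and up to 2 mismatches in 50, the share ran between 4.2% and 67.5% for PSG4, 0% and 28.5% for CEACAM5, 0% and 21.6% for CEACAM6, 0.53% and 13.5% for CEACAM1, 0% and 11.2% for CEACAM8, 0% and 1.93% for CEACAM7, and stayed at 0% for CEACAM19. The mismatch setting and the fragment step were chosen after seeing the data.

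No paired analysis was possible because the table holds 1 value per group and none per library. For the same reason leaving out each library in turn was not run. Matching was tried with up to 2 mismatches.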
